A study of Mus musculus with 21 samples.

Results

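The regions described here are binding sites of the transcription factor T (Brachyury) near gene starts at which Foxa2 was not called in the same kind of culture. They were chosen from the deposited peak lists by position alone: a T peak was kept if it shared no base with a Foxa2 peak and if its summit, the base of highest enrichment, lay within 5000 bp of the 5' end of a protein-coding gene (GENCODE vM21, genome build mm10). The rule was met by 881 of the 6875 T peaks (12.8%, 95% Wilson interval 12.0 to 13.6; all such intervals given here cover counting error only). The 881 T-only promoter peaks lay at 1018 of 21951 protein-coding genes (4.64%), and 972 gene symbols of these had expression values. Overlap, position and peak height come from the lists that chose the regions and are given as a description, whereas RNA levels and base composition were not used by the rule.

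The study compared mouse notochord progenitors with mesodermal progenitors, in embryos and in cultures made from genetically modified F1G4 (C57BL/6N x SV129) embryonic stem cells. The T and Foxa2 ChIP-seq libraries, 1 each, came from cultures fixed on day 4 that held TRE::Foxa2-IRES-EGFP at Rosa26, T::H2B-mCherry-T2A-irTA (BAC) and Noto::H2B-mTurquoise (BAC). These cultures received 10 ng/ml bFGF, then CHIR99021 from day 2 and 1 ng/ml doxycycline, which turns on the Foxa2 transgene in cells with T promoter activity. They are called NotoPdiff, and chromatin was taken from the whole culture, whereas RNA was taken from sorted cells. The 9 RNA libraries, 1 per condition, comprised NotoPdiff (Noto+/T+, day 4, with doxycycline), MPdiff (T+/Noto-, day 4, no doxycycline listed) and NMPdiff cells (T+/Noto-, day 3, named after neuromesodermal progenitors) of the same line. They further comprised embryonic NotoP (Noto+/T+/Foxa2+, caudal end), MP (T+/Noto-/Foxa2-, caudal end) and trunk notochord cells (T+/Noto+/Foxa2+, trunk) at E8.5 (Theiler stage 12) and E9.5 (stage 16). All embryos carried T::H2B-Venus, Noto::H2B-mCherry and Foxa2::H2B-mTurquoise BACs. All 9 sorts required T reporter activity, so none of the libraries is a T-negative reference.

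T is the founding T-box factor, needed for posterior mesoderm and notochord. It recognises a short sequence whose consensus strand reads AGGTGTGA, often as an inverted repeat, and acts mostly as an activator. In the tailbud T works in a loop with Wnt and Fgf signals that keeps progenitors dividing, and with other T-box factors it turns on the presomitic mesoderm programme of *Tbx6*, *Msgn1* and *Mesp2*. In the notochord T is present together with the forkhead factor Foxa2, and the tissue secretes Shh and the BMP antagonists Nog and Chrd.

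The 50 bp on either side of the summits of the strongest T-only promoter peaks are shown first, since they carry the clearest sequence feature of these sites. They are plus strand sequences of mm10, and capitals mark 4 words on either strand. These are AGGTGTGA, GGTGTG (contained in it), GTGTGAA (overlapping it) and TGCTAA, which is not contained in AGGTGTGA. Whether TGCTAA belongs to a variant of the T site was not tested. TTCACAC and TTAGCA are GTGTGAA and TGCTAA read from the other strand.
*Mesp1*, chr7:79789380-79789480: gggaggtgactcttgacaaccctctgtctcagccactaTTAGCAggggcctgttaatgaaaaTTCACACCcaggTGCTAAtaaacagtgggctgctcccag
*Ndufaf4*, chr4:24893137-24893237: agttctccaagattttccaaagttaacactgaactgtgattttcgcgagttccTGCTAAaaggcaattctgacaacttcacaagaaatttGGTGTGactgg
*Mmp21*, chr7:133680112-133680212: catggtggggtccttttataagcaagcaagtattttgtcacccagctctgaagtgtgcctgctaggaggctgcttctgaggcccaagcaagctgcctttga
*Msgn1*, chr12:11209118-11209218: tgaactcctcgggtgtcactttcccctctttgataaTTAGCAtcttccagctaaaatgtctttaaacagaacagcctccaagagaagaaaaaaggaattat
*Cyyr1*, chr16:85554025-85554125: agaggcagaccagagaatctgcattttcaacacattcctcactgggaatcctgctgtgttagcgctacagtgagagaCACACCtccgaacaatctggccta
*Rps6ka5*, chr12:100727960-100728060: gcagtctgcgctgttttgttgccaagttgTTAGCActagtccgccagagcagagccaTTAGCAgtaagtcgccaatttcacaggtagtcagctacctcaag
*Pkdcc*, chr17:83214253-83214353: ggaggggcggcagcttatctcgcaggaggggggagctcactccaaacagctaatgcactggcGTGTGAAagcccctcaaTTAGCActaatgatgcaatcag
*Avpr1b*, chr1:131598171-131598271: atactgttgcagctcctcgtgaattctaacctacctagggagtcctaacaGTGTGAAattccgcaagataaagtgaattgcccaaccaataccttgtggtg
*Rab8b*, chr9:66920806-66920906: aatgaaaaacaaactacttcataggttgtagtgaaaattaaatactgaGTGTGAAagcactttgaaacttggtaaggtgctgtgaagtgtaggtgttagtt
Of the 12 strongest peaks, 11 held at least 1 of these words within 50 bp of the summit, and the exception was the peak at *Mmp21*. The summits at *Zfp397*, *Olfr1028* and *Gm29776* also belong to these 12 and are not shown. Over all 881 T-only promoter peaks, 605 (68.7%) held none of the 4 words. GTGTGAA and TGCTAA were picked after their counts at these summits had been seen, so the count of 11 tests nothing. The window near *Mesp1* held GTGTGAA and GGTGTG in 1 overlapping run, between 2 copies of TGCTAA.

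A second set is shown for genes with roles in the caudal mesoderm and notochord that are described below, with the same capitals.
*Hes7*, chr11:69119015-69119115: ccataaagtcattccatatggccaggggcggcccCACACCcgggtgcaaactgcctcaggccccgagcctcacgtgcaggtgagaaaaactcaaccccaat
*Nog*, chr11:89300182-89300282: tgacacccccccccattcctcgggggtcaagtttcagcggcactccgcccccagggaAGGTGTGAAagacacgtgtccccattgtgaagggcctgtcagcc
*Bmp7*, chr2:172937501-172937601: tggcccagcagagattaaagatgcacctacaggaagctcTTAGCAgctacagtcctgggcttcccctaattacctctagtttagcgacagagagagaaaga
*Ptch1*, chr13:63576081-63576181: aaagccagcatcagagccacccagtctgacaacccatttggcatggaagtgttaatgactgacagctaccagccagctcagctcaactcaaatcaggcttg
*Mnx1*, chr5:29476392-29476492: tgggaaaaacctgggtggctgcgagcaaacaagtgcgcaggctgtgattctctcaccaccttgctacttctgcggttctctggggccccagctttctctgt
*T*, chr17:8433952-8434052: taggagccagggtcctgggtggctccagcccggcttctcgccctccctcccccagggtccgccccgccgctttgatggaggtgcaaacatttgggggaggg
*Id1*, chr2:152739463-152739563: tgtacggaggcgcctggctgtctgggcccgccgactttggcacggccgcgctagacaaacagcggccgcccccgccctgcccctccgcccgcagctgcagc
Here *Nog* held all of AGGTGTGA, GTGTGAA and GGTGTG in 1 run, *Hes7* held GGTGTG and *Bmp7* held TGCTAA, whereas the windows of *Ptch1*, *Mnx1*, *T* and *Id1* held none of them. A word is a match of letters and no measure of binding, and its absence says only that these letters are not in this window.

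T-only promoter peaks crowded at the 5' end and were strongest away from it. The summit lay within 100 bp of the nearest 5' end in 142 peaks, beyond 100 and up to 1000 bp in 331 and beyond 1000 bp in 408, with 425 upstream and 454 downstream. Thus 473 (53.7%, 50.4 to 57.0) lay within 1000 bp, against 40 of the 130 promoter peaks that T shared with Foxa2 (30.8%, 23.5 to 39.2). The median fold enrichment (ChIP signal over the background estimated by the peak caller) was 4.73 within 100 bp, 5.00 beyond 100 and up to 1000 bp and 7.08 beyond 1000 bp. The last value was close to the 7.56 of the 4603 T-only peaks farther from gene starts, and shared promoter peaks had 8.09. In the top quartile of the T list by fold enrichment were 6 of the 142 peaks nearest to the 5' end (4.23%), 36 of 331 (10.9%) and 91 of 408 (22.3%), against 25.6% of T-only distal peaks.

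**Figure D1:**
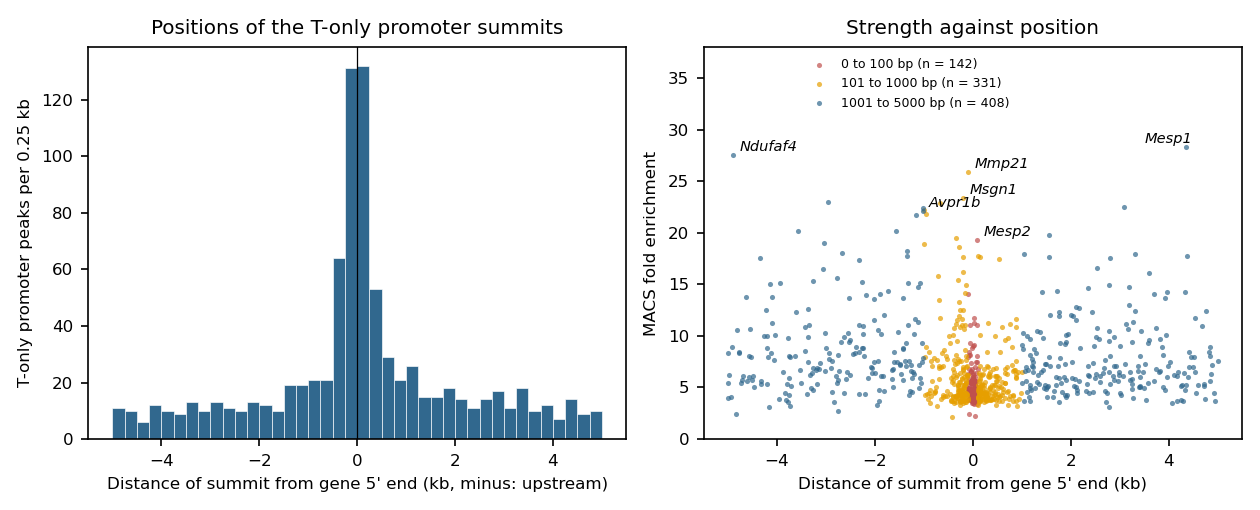
Left, number of T-only promoter peaks per 0.25 kb of distance between summit and the nearest gene 5' end, with upstream as minus. Right, MACS fold enrichment of each of the 881 peaks against the same distance, coloured by distance class; most summits within 1 kb lie low, and the strongest peaks, at *Mesp1* (28.3) and *Ndufaf4* (27.5), lie over 4 kb from the 5' end.

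By annotation, 351 summits (39.8%) were outside protein-coding genes, 258 (29.3%) in introns, 154 (17.5%) in 5' UTRs, 33 in coding exons, 16 in 3' UTRs and 69 in exons of noncoding transcripts. Peaks with a summit in a 5' UTR had a median fold enrichment of 4.62, and those outside protein-coding genes 6.43. Since the rule counts distance from the 5' end alone, a downstream summit can lie beyond the 3' end of a short gene. This was so at *Mesp1*, *Nog* and *Id1*, for example. A single gene was within reach of 752 peaks, 2 genes of 120, 3 genes of 6 and 4 or more of 3, and 10 genes had 2 peaks each, among them *Hes7*, *Mnx1*, *Evx1*, *Hoxa5* and *Ephb4*. The nearest Foxa2 peak was at a median of 33559 bp (29584 bp for T-only distal peaks) and lay within 500 bp of 16 T-only promoter peaks. Of the 1018 genes, 117 (11.5%) had some Foxa2 peak within 5000 bp of their 5' end, against 8.46% of all protein-coding genes.

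At the edges of the rule, the peaks just inside 5000 bp were at *Spink8* (distance −4997 bp, where minus is upstream, fold enrichment 8.37) and *Pctp* (−4996 bp, 5.48), and those just outside were near *Bicra* (−5028 bp, 7.10) and *Lbr* (−5033 bp, 7.87). The closest Foxa2 peak without overlap was 19 bp away, at *Cd300e*. The weakest by q were at *Csrnp2* and *Dctn1*, both with a −log10 q of 1.01. The lowest fold enrichments belonged to *Sfi1* (2.14), the *Gm10719* cluster (2.25) and a mitochondrial peak (2.43) that lay within 5000 bp of 10 mitochondrial genes and had no expression values. Read pairs were mapped uniquely, and whether misplaced reads from repeated or mitochondrial sequence remained was not tested. Bases masked as repeats held 85 summits (9.65%), against 9.80% of all protein-coding 5' ends and 31.2% of positions placed 10000 bp to either side.

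Base composition changed with distance in the same order as peak strength. Median G+C in the window of 50 bp on either side of the summit fell from 64.9% within 100 bp to 60.4% and 47.5% in the farther classes (45.5% at T-only distal summits), and the median number of CpG dinucleotides from 9 to 6 and 1. The T site AGGTGTGA was present at 24 of 881 summits (2.72%, 1.84 to 4.02), against 4 of 1761 positions placed 10000 bp to either side (0.227%) and 66 of 21948 protein-coding 5' ends (0.301%). The core GGTGTG was present at 12.8% of summits and 7.10% of those positions, and at 6.56% of 5' ends.

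Words other than AGGTGTGA were present at more summits. When all 7-letter words were counted, GTGTGAA had the largest excess over the positions 10000 bp away, at 102 summits (11.6%, 9.63 to 13.9) against 21 positions (1.19%) and 0.811% of all 5' ends. TGCTAA was present at 119 summits (13.5%, 11.4 to 15.9), 4.49% of the positions and 2.72% of 5' ends. Both words were picked after their counts had been seen, so these shares describe the peaks and test nothing. Hits of GTGTGAA were concentrated at the summit, with 5.33 per 100 windows in the first 25 bp to its right against 0.398 at the positions 10000 bp away.

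**Figure D2:**
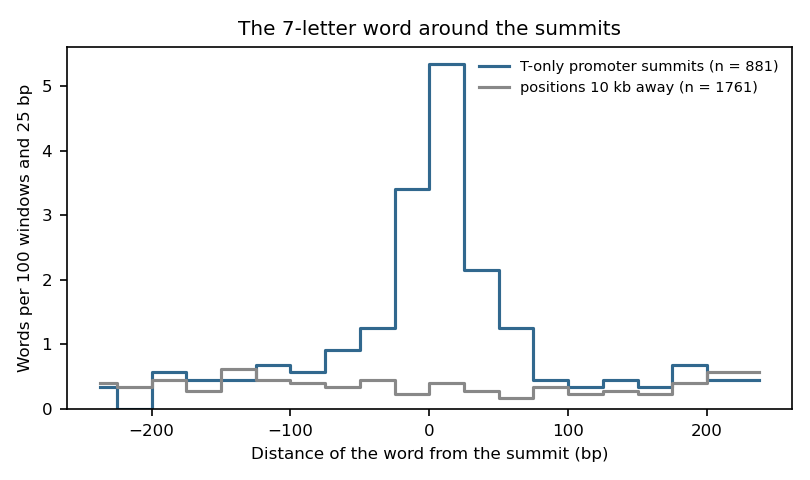
Hits of the 7-letter word GTGTGAA per 100 windows in 25 bp steps around the 881 T-only promoter summits and around 1761 positions placed 10 kb away. The hits of the summits gather within 50 bp of the summit, whereas those of the other positions show no such rise.

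GTGTGAA and TGCTAA were rarer near the 5' end than away from it, and AGGTGTGA and GGTGTG showed no comparable rise. GTGTGAA was present at 4.23% (1.95 to 8.91) of summits within 100 bp, 6.04% (3.95 to 9.15) up to 1000 bp and 18.6% (15.1 to 22.7) beyond 1000 bp, against 16.4% at T-only distal and 10.8% at shared promoter summits. AGGTGTGA was present at 2.82%, 1.51% and 3.68% and GGTGTG at 10.6%, 12.1% and 14.2% of the same classes, with overlapping intervals. TGCTAA had 1.41%, 12.1% and 18.9%, and its share rose over the quartiles of fold enrichment from 4.07% to 6.33%, 16.4% and 27.3%. The GC-box word GGGCGG, read by Sp factors, ran the other way, with 33.8%, 22.4% and 4.41%, against 27.8% of all protein-coding 5' ends. The forkhead word TGTTTAC was present at 0.704%, 1.81% and 6.86%, against 6.28% at T-only distal and 11.5% at shared promoter summits. None of the 4 words was found at 365 of the 473 summits within 1000 bp (77.2%) and at 240 of the 408 farther out (58.8%). Among peaks within 1000 bp, the 26 with GTGTGAA had a median fold enrichment of 6.84 and the 447 without it 4.82.

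**Figure D3:**
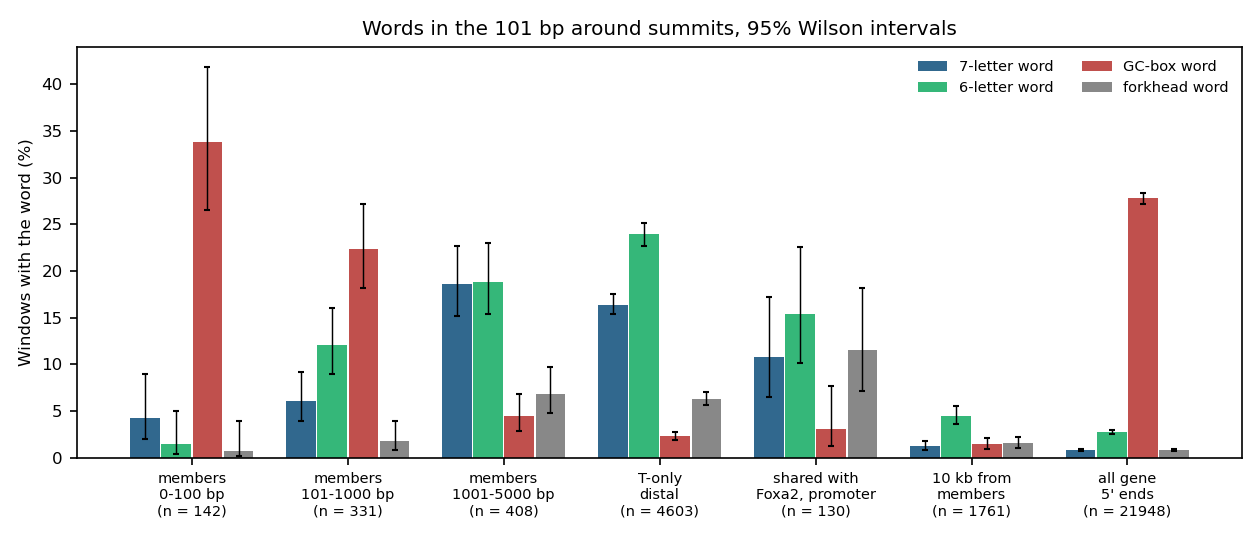
Percent of windows of 50 bp on either side with each word for T-only promoter summits in 3 distance classes, T-only distal summits, shared promoter summits, positions 10 kb from the T-only promoter summits and all protein-coding 5' ends; bars carry 95% Wilson intervals. GTGTGAA (7 letters) is at 4.23%, 6.04% and 18.6% and TGCTAA (6 letters) at 1.41%, 12.1% and 18.9% from the gene start outwards, while the GC-box word falls from 33.8% to 4.41%.

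Before the expression values, the sorted cells were checked by marker genes fixed for each cell type. The 6 notochord markers (*Noto*, *T*, *Foxa2*, *Shh*, *Chrd*, *Nog*) were above 0 in both NotoP libraries and in NotoPdiff cells, with a summed level of 1391 and 1180 FPKM (a value scaled to transcript length and library size) in NotoP at E8.5 and E9.5, 76.1 and 163 in MP, 592 in NotoPdiff and 29.1 in MPdiff. In NMPdiff cells the sum was 421 FPKM, with 5 of the 6 markers above 0, and *T* alone had 406. *T* likewise had 909 FPKM in NotoP at E8.5 and 375 in NotoPdiff cells. The embryonic sorts used reporters of *Noto*, *T* and *Foxa2*, and the cultured sorts those of *Noto* and *T*. For these genes the check was therefore fixed in part by the sort. The *Foxa2* value of NotoPdiff cells includes the transgene. NotoP cells also held mesoderm progenitor transcripts: the 5 markers *Tbx6*, *Msgn1*, *Dll1*, *Pcdh8* and *Osr1* summed to 120 FPKM at E8.5 and 105 at E9.5 (4 of the 5 above 0), against 179 and 307 in MP, 75.8 in NotoPdiff and 161 in MPdiff, and 9.85 and 4.48 in trunk notochord. The E8.5 MP library, made from the fewest cells, listed 52.3% of protein-coding genes at 0, the other 8 libraries 25.6% to 45.4%. A 0 there does not show that a gene was silent, and ratios to that library are given with this limit. Embryonic and cultured libraries were sequenced on different instruments, so ratios were formed only within each kind. In such bulk samples fewer cells of a type and less RNA per cell cannot be told apart. With 1 library per condition no difference has a replicate check, and a change is called here only when it reaches 3-fold on the log2(FPKM + 1) scale, a ratio that understates the change of low genes.

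Genes with a T-only promoter peak were mostly active genes. At least 1 FPKM was reached in NotoPdiff cells by 743 of 972 (76.4%, 73.7 to 79.0), against 55.5% of all 20401 protein-coding genes in the table, and their median was 8.08 FPKM against 2.00. The same held in each of the other 8 libraries, where 64.9% to 75.2% of them reached 1 FPKM and 45.2% to 53.8% of all genes. The share was 86.8% for the 522 genes with a peak within 1000 bp and 64.4% for the 450 genes with peaks only beyond 1000 bp, and 3.45% and 18.4% of them were listed at 0 in NotoPdiff cells. Genes with other promoter peaks were also above all genes in NotoPdiff cells. At least 1 FPKM was reached by 73.6% (65.1 to 80.6) of those with a peak shared by T and Foxa2. For those with a Foxa2-only peak it was 65.6% (63.3 to 67.9).

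The comparison of NotoPdiff with MPdiff cells asks which of these genes differ between notochord-like and mesodermal cultures. Of 972 genes, 31 (3.19%, 2.26 to 4.49) were at least 3-fold higher in NotoPdiff cells, where 1.76% of all protein-coding genes were, and 8 (0.823%) at least 3-fold lower, where 0.461% were. Among genes with at least 1 FPKM in either library the shares were 4.08% against 3.08% higher and 1.05% against 0.805% lower, smaller differences than without this limit. The median log2 ratio was 0.00, as for all genes. The position of the peak divided them: 23 of 450 genes with peaks only beyond 1000 bp (5.11%, 3.43 to 7.55) and 8 of 522 with a peak within 1000 bp (1.53%, 0.779 to 2.99) were at least 3-fold higher. Of the 866 genes without any Foxa2 peak within 5000 bp, 22 (2.54%, 1.68 to 3.82) were at least 3-fold higher. Of the 106 genes with one, 9 were (8.49%, 4.53 to 15.4). Among genes with at least 1 FPKM in either library these shares were 3.26% and 10.6%, against 3.08% of all genes. The part of Foxa2 in this difference was not tested. Against NMPdiff cells, 41 genes (4.22%) were at least 3-fold higher in NotoPdiff cells where 1.47% of all genes were, and 13 (1.34%) lower where 0.863% were. In MPdiff over NMPdiff cells, 24 genes were higher (2.47%, all genes 1.01%) and 26 lower (2.67%, all genes 1.62%). Among genes with at least 1 FPKM in either library these shares were 5.37% (all genes 2.54%) and 1.70% (1.49%) for NotoPdiff over NMPdiff, then 3.21% (1.79%) and 3.48% (2.88%) for MPdiff over NMPdiff cells. The 3 pluripotency markers summed to 296 FPKM in NMPdiff, 13.2 in NotoPdiff and 14.8 in MPdiff cells, and their part in the comparisons with NMPdiff was not tested. These 3 comparisons share libraries and are not independent of each other.

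**Figure D4:**
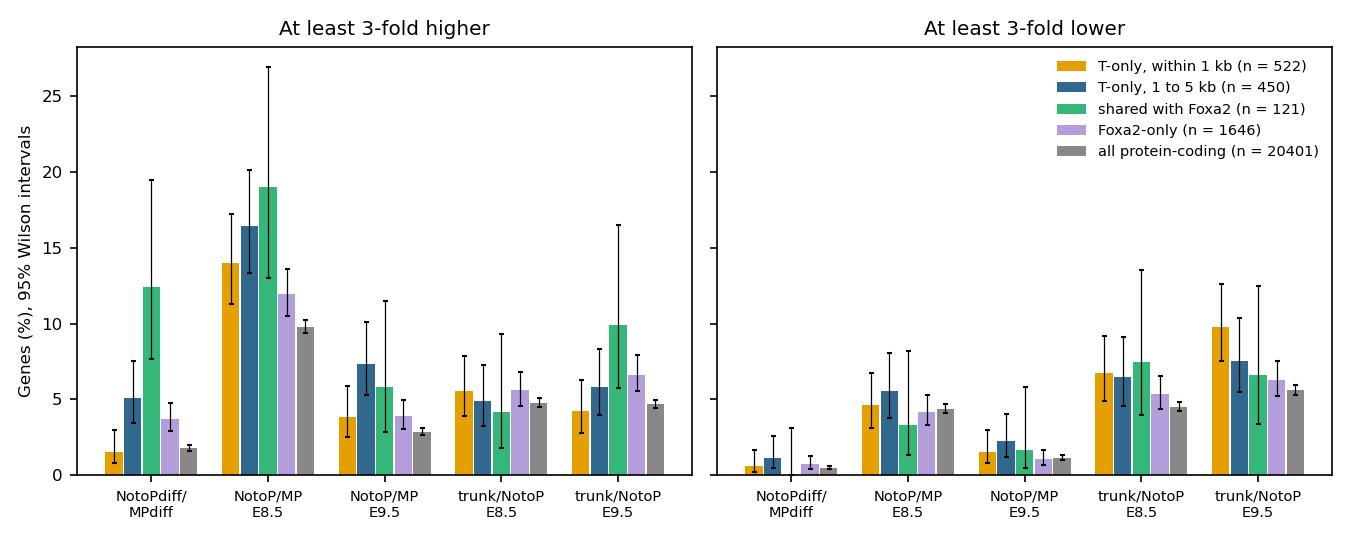
Percent of genes at least 3-fold higher (left) or lower (right) in 5 comparisons, for genes with a T-only promoter peak within 1 kb or at 1 to 5 kb, genes with a promoter peak shared by T and Foxa2, genes with a Foxa2-only promoter peak and all protein-coding genes; bars carry 95% Wilson intervals and each condition has 1 library. In NotoPdiff over MPdiff cells, genes with T-only peaks at 1 to 5 kb reach 5.11% and those with peaks within 1 kb 1.53%, near the 1.76% of all genes.

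Among genes with at least 5 FPKM in either library, the 8 highest in NotoPdiff over MPdiff cells were *Cldn6*, *Arl4a*, *Upk3a*, *Nog*, *T*, *Foxj1*, *Mnx1* and *Tnfrsf12a*. *Cldn6*, a tight junction protein of early epithelia, had 126 FPKM in NotoPdiff, 3.38 in MPdiff and 17.4 in NMPdiff cells, a log2 ratio of 4.86. *Arl4a*, a small GTPase, had 63.6 FPKM in NotoPdiff, 2.26 in MPdiff and 4.28 in NMPdiff cells, and was likewise higher in NotoP than in MP of both stages (62.3 against 3.51 FPKM at E8.5, 19.1 against 3.72 at E9.5). *Upk3a*, a uroplakin, had 15.6 FPKM in NotoPdiff and 0.0786 in MPdiff cells. In embryos *Upk3a* had 7.67 FPKM in NotoP and 9.39 in MP at E8.5 and was listed at 0 in all 3 E9.5 libraries, so the difference in culture had no counterpart there. *Tnfrsf12a*, the receptor of the cytokine Tweak, had 11.0 FPKM in NotoPdiff and 0.270 in MPdiff cells, and the single peak at chr17:23677418-23677808 (fold enrichment 7.65) lay within reach of both *Tnfrsf12a* and *Cldn6*.

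The 8 genes at least 3-fold lower were *Hoxd1*, *Hmga2*, *Tmem132c*, *Myc*, *Pdgfra*, *Hoxa2*, *Id1* and *Mesp2*. *Hmga2*, a chromatin protein of growing embryonic tissue, had 60.5 FPKM in NotoPdiff, 325 in MPdiff and 37.0 in NMPdiff cells. *Pdgfra*, a growth factor receptor of mesoderm, had 5.80 FPKM in NotoPdiff and 30.3 in MPdiff cells and was lower in NotoP than MP in embryos as well, with 10.9 against 58.5 FPKM at E8.5, then 11.6 against 65.9 at E9.5. It was the sole gene of the 8 past 3-fold in all 3 comparisons. *Myc*, a growth regulator, had 4.12 FPKM in NotoPdiff and 24.0 in MPdiff cells, 9.84 in NotoP and 21.7 in MP at E8.5, and 16.4 in NotoP and 15.4 in MP at E9.5. *Id1*, a target of BMP signalling, had 15.7 FPKM in NotoPdiff and 70.4 in MPdiff cells, while NotoP and MP had 42.4 against 5.56 at E8.5 but 60.7 against 81.8 at E9.5. Its difference at E8.5 was past 3-fold in the other direction. *Tmem132c*, a membrane protein, had 4.28 FPKM in NotoPdiff and 26.4 in MPdiff cells, and 1.13 in NotoP and 32.7 in MP at E9.5. At E8.5 it had 4.61 FPKM in NotoP and 11.2 in MP, below 3-fold.

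Of 22 notochord genes on a list chosen with earlier results of these data known, 5 (22.7%) had a T-only promoter peak, where 4.64% of all protein-coding genes had one: *Foxj1*, *Sox6*, *Mnx1*, *T* and *Nog*. The other lists below were chosen in the same way, so their shares are a description. All but *Sox6* were at least 3-fold higher in NotoPdiff than in MPdiff cells. *Nog* encodes the BMP antagonist Noggin, and its peak (chr11:89300145-89300444, distance 2100 bp, fold enrichment 5.07) lay beyond the 3' end of the gene. *Nog* had 40.1 FPKM in NotoPdiff, 1.83 in MPdiff and 1.16 in NMPdiff cells. In embryos *Nog* had 75.1 FPKM in NotoP and 0 in MP at E8.5, 37.2 against 1.67 at E9.5, with 77.8 and 48.2 in trunk notochord. It was low in every MP library and high in every notochord library. *T* itself (peak chr17:8433890-8434274, −421 bp, 5.54) had 375 FPKM in NotoPdiff, 25.8 in MPdiff and 406 in NMPdiff cells. In embryos it had 909 FPKM in NotoP and 74.8 in MP at E8.5, 744 against 160.0 at E9.5, with 398 and 424 in trunk notochord. All of these cells were sorted for T reporter activity, and the MP libraries were the lowest of each stage. *Mnx1*, a homeobox gene of notochord and motor neurons with 2 peaks in introns (7.51 and 5.32), had 10.2 FPKM in NotoPdiff, 0.0896 in MPdiff and 0.123 in NMPdiff cells, and 24.6 and 23.0 in NotoP against 0 and 1.57 in MP. *Foxj1*, the regulator of motile cilia (−1735 bp, 14.4), had 10.9 FPKM in NotoPdiff cells, 0 in MPdiff, 4.76 in NotoP at E8.5 and 0 at E9.5. *Sox6*, a factor of notochord and cartilage, had its highest levels in trunk notochord (21.6 and 39.8 FPKM), with 3.13 in NotoPdiff and 1.12 in MPdiff cells.

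Of 30 caudal and mesoderm transcription factors on a list chosen in the same way, 9 (30.0%) had a T-only promoter peak, and the 4 strongest of these peaks were at *Mesp1* (28.3), *Msgn1* (23.4), *Mesp2* (19.3) and *Hes7* (18.3). They ranked 6, 76, 228 and 302 among all 6875 T peaks. *Mesp1*, an early mesoderm factor (chr7:79789113-79789774, 4358 bp, beyond the 3' end of the gene), had 2.76 FPKM in NotoPdiff, 9.85 in MPdiff and 14.9 in NMPdiff cells. *Mesp2*, a somite boundary factor (chr7:79810477-79811079, 90 bp, summit in the 5' UTR), had 0.629 FPKM in NotoPdiff and 5.43 in MPdiff cells, the sole list member at least 3-fold lower. *Msgn1*, a presomitic mesoderm factor (chr12:11208899-11209484, −196 bp), had 11.2 FPKM in NotoPdiff, 25.1 in MPdiff and 52.7 in NMPdiff cells. High peaks thus stood at genes of low or moderate level in the sorted NotoPdiff cells. *Hes7*, the segmentation clock repressor, had 2 peaks upstream (chr11:69118821-69119303 with 18.3 and chr11:69117899-69118201 with 4.34) and 11.2, 12.7 and 2.42 FPKM in NotoPdiff, MPdiff and NMPdiff cells. None of the 9 was at least 3-fold higher in NotoPdiff than in MPdiff cells, where 1.76% of all genes were, so 0 of 9 says little. In NotoP over MP at E8.5, *Hes7* (74.3 against 5.38 FPKM) and *Sp5* (89.0 against 14.9) were past 3-fold higher and *Mesp1* (0 against 2.41) lower. At E9.5 these genes did not reach 3-fold. The chromatin came from unsorted cultures, so the cells in which T was bound at the 9 genes cannot be told apart.

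*Tbx6*, the paraxial mesoderm T-box factor (3920 bp, summit in a 3' UTR, fold enrichment 13.6), had 21.3 FPKM in NotoPdiff, 33.2 in MPdiff and 11.1 in NMPdiff cells. *Cdx2*, a posterior patterning factor (14.6, intron), had 39.9, 47.0 and 3.49 FPKM in the same libraries, and 126 and 107 in NotoP against 50.8 and 52.7 in MP. *Evx1*, a posterior homeobox factor (2 peaks, 6.24 and 4.09), had 6.02 FPKM in NotoPdiff and 14.1 in MPdiff cells. None of these 3 genes reached 3-fold between the day 4 cultures. *Sp5*, a direct target of Wnt signalling (6.49), had 74.8 FPKM in NotoPdiff, 39.1 in MPdiff and 71.1 in NMPdiff cells. *Ripply1*, a somite factor (7.56), was listed at 0 in 8 libraries and had 0.422 FPKM in NMPdiff cells. In trunk notochord of both stages *Tbx6*, *Msgn1* and *Hes7* were listed at 0, and *Evx1* and *Cdx2* had at most 9.23 FPKM, whereas caudal NotoP cells of both stages held all 5. The summed mesoderm progenitor markers, which include *Tbx6* and *Msgn1*, were likewise lower in trunk than in NotoP libraries, and their part in this difference was not tested.

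**Figure D5:**
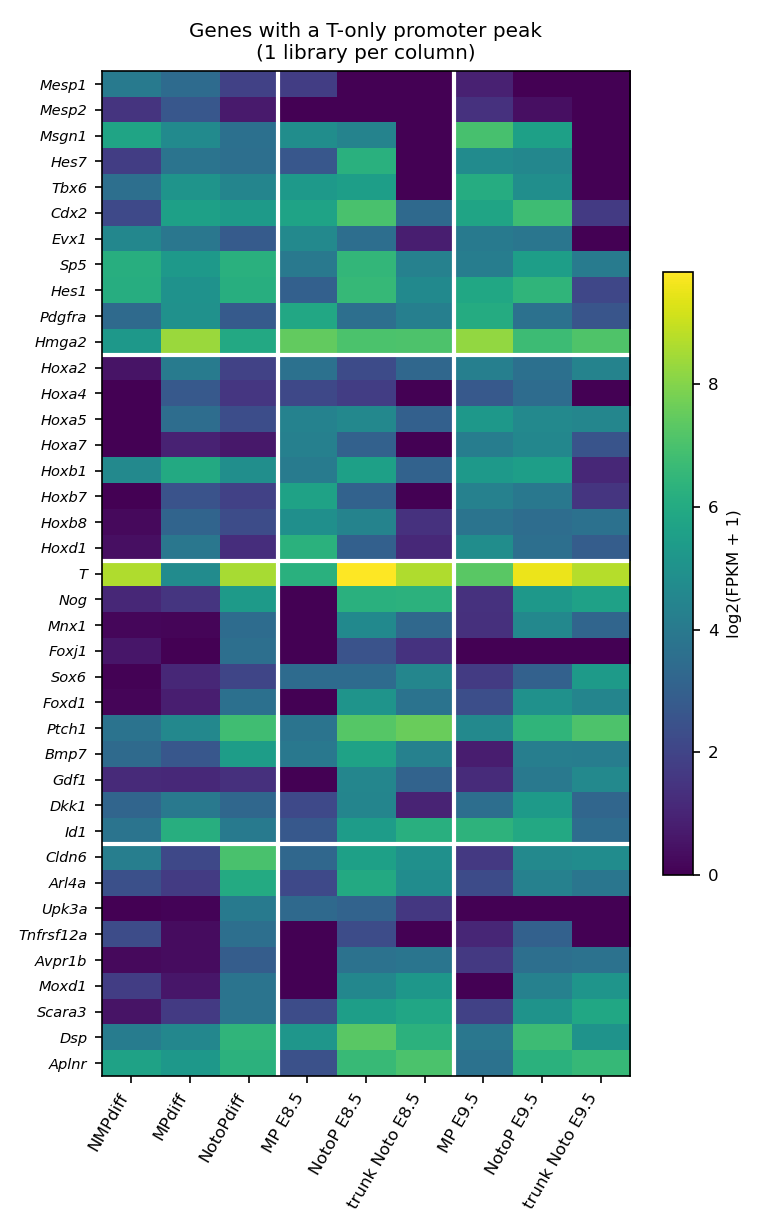
Heatmap of log2(FPKM + 1) of 39 genes with a T-only promoter peak (rows) in the 9 RNA libraries (columns, 1 library each, with white lines between cultures, E8.5 and E9.5). Rows are grouped from top as caudal and mesoderm genes, *Hox* genes, notochord and signalling genes, and other genes higher in NotoPdiff than in MPdiff cells. *Tbx6*, *Msgn1* and *Hes7* are dark in both trunk columns, while *Nog* and *Mnx1* are bright in notochord libraries and dark in MP.

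*Hox* genes, which set position along the body axis, had a T-only promoter peak in 9 of 39 cases (23.1%): *Hoxa2*, *Hoxa4*, *Hoxa5*, *Hoxa7*, *Hoxb1*, *Hoxb7*, *Hoxb8*, *Hoxb13* and *Hoxd1*. *Hoxb7* and *Hoxb8* share the strongest of these peaks (13.7), and *Hoxa5* has 2. The log2 ratio of NotoPdiff over MPdiff cells was below 0 for all 8 with any signal, between −2.63 and −0.32, and 2 passed 3-fold: *Hoxd1* (1.44 against 14.1 FPKM) and *Hoxa2* (2.80 against 15.8). *Hoxb1* had 28.0 FPKM in NotoPdiff, 61.5 in MPdiff and 23.5 in NMPdiff cells, and 47.2 and 44.3 in NotoP against 7.41 and 1.14 in trunk notochord. *Hoxa5*, *Hoxb7* and *Hoxb8* were at or below 0.176 FPKM in NMPdiff cells and between 2.69 and 10.4 in both day 4 cultures. *Hoxb13* was listed at 0 in all 9 libraries. Genes of these clusters lie close together, so a peak may be within reach of several of them.

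In the Nodal and BMP list 5 of 22 genes (22.7%) had a T-only promoter peak, *Cer1*, *Id1*, *Bmp7*, *Gdf1* and *Nog*. *Bmp7*, a BMP ligand (intron, 6.50), had 43.4 FPKM in NotoPdiff and 5.41 in MPdiff cells, and 49.1 and 17.2 in NotoP against 14.1 and 0.748 in MP. *Gdf1*, a ligand of the Nodal pathway, had 21.8 and 14.9 FPKM in NotoP and 0 and 1.30 in MP, but 1.54 and 1.21 in NotoPdiff and MPdiff cells. The high embryonic level of *Gdf1* was thus not seen in culture. *Cer1*, a Nodal antagonist with a strong peak close to its 5' end (−151 bp, 14.1), had 0.0279 FPKM in NotoPdiff cells. Of 13 hedgehog genes *Ptch1* and *Cdon* had a peak (15.4%). *Ptch1*, the Shh receptor and a target of the pathway (−2533 bp, 9.44), had 112 FPKM in NotoPdiff and 23.0 in MPdiff cells, 150.5 and 86.0 in NotoP and 12.7 and 23.7 in MP. *Cdon*, a Shh coreceptor (16.1), had 6.27 and 6.61 FPKM in NotoP and 41.2 and 23.1 in trunk notochord.

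In the Wnt list 3 of 25 genes (12.0%) had a peak. *Dkk1*, a Wnt antagonist (−4972 bp, near the edge of the rule), had 21.1 and 40.0 FPKM in NotoP and 3.48 and 10.8 in MP, past 3-fold at both stages. In culture it had 8.73 FPKM in NotoPdiff and 14.7 in MPdiff cells, which did not reach 3-fold. *Notum*, a Wnt-inactivating enzyme, and *Tcf7l1*, a repressor of Wnt targets, had log2 ratios of −0.20 and 0.13 between NotoPdiff and MPdiff cells. Of 19 Fgf genes *Dusp6* and *Fgfr2* had one (10.5%), and *Dusp6*, a feedback inhibitor of the pathway (−315 bp, 9.46), had 23.1 FPKM in NotoPdiff, 14.3 in MPdiff and 114 in NMPdiff cells. Of 15 Notch genes *Hes1* and *Hes7* had one (13.3%). *Hes1*, a transcriptional repressor, had 70.6 FPKM in NotoPdiff and 31.3 in MPdiff cells. Among 11 retinoic acid genes and 14 pluripotency genes 0 had a T-only promoter peak (intervals up to 25.9% and 21.5%). These lists are too short to tell 0 from the 4.64% of all protein-coding genes.

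The remaining lists held *Cldn6* and *Zeb1* (2 of 18 genes of epithelial-mesenchymal transition), *Irx3*, *Pax3* and *Zic2* (3 of 14 neural factors), *Cer1* and *Cxcr4* (2 of 11 endoderm genes) and *Cdkn1b* and *Myc* (2 of 33 cell cycle genes). *Irx3*, a neural homeobox factor, had 0 FPKM in MP at E9.5, 19.2 in NotoP and 53.6 in trunk notochord. At E8.5 *Irx3* was likewise higher in NotoP but below 3-fold, with 6.63 FPKM in MP and 18.5 in NotoP. Peaks also lay at 7 of 83 ribosomal protein genes (8.43%, 4.15 to 16.4), 3 of 83 genes of oxidative phosphorylation (3.61%) and 5 of 67 replication-dependent histone genes (7.46%, 3.23 to 16.3; 4 of them at 1 peak), shares near the 4.64% of all genes. None of these genes reached 3-fold between NotoPdiff and MPdiff cells, and the 7 ribosomal protein genes had log2 ratios between −0.22 and 0.27 and fold enrichments between 3.61 and 6.13.

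The 12 strongest peaks lay at genes of very unlike level. Beside *Mesp1* and *Msgn1* they were at *Ndufaf4* (27.5), *Mmp21* (25.9), *Zfp397* (23.0), *Cyyr1* (22.9), *Olfr1028* (22.5), *Rps6ka5* (22.4), *Pkdcc* (22.2), *Avpr1b* (22.1), *Gm29776* (21.9, no expression value) and *Rab8b* (21.7). *Avpr1b*, a vasopressin receptor, and *Cyyr1* were at least 3-fold higher in NotoPdiff than in MPdiff cells (6.46 against 0.241 and 5.77 against 0.791 FPKM). *Mmp21*, a metalloproteinase of left-right patterning, had 0.314 FPKM in NotoPdiff cells and *Olfr1028*, an odorant receptor, was listed at 0 in every library. *Ndufaf4*, an assembly factor of respiratory complex I, had 24.8 FPKM in NotoPdiff and 16.8 in MPdiff cells and *Rab8b*, a small GTPase, 29.7 and 25.6. *Pkdcc*, a secreted kinase, had 0.384 and 0 FPKM in NotoP but 25.1 and 18.4 in trunk notochord.

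In embryos the comparison of NotoP with MP was read at each stage. At E8.5, 147 of 972 genes (15.1%, 13.0 to 17.5) were at least 3-fold higher in NotoP where 9.8% of all genes were, and 49 (5.04%) lower where 4.38% were. Among genes with at least 1 FPKM in either library these became 19.7% against 17.8% higher and 6.56% against 7.94% lower, shares near the background. At E9.5, 53 genes (5.45%, 4.19 to 7.06) were higher where 2.84% were and 18 (1.85%) lower where 1.15% were, or 7.03% against 5.13% and 2.39% against 2.08% among genes with at least 1 FPKM. The median log2 ratio was 0.05 (E8.5) and 0.00 (E9.5). At both stages 30 genes (3.09%, 2.17 to 4.37) were at least 3-fold higher, where 1.46% of all genes were, and 6 (0.617%) lower, where 0.255% were. No share among genes with at least 1 FPKM was computed for both stages together. Of the 30, 21 had their peaks only beyond 1000 bp (4.67% of 450) and 9 within 1000 bp (1.72% of 522).

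Besides *Nog*, *T*, *Mnx1*, *Ptch1*, *Bmp7*, *Gdf1*, *Dkk1*, *Cldn6*, *Arl4a*, *Tnfrsf12a* and *Avpr1b*, the 30 included receptors and cell adhesion genes. *Aplnr*, the apelin receptor (−292 bp, 12.0), had 97.1 and 77.5 FPKM in NotoP, 4.37 and 12.1 in MP and 131 and 95.4 in trunk notochord. *Dsp*, desmoplakin of desmosomes, had 157 and 107 FPKM in NotoP and 34.9 and 14.0 in MP, and 84.9 in NotoPdiff against 22.6 in MPdiff cells. *Foxd1*, a forkhead factor (4709 bp), had 32.6 and 30.6 FPKM in NotoP, 0 and 4.09 in MP, and 11.4 against 0.795 in NotoPdiff and MPdiff cells. These differences were past 3-fold in all 3 comparisons for *Dsp* and *Foxd1*, and in embryos for *Aplnr*. *Moxd1*, a monooxygenase-like protein, had 22.3 and 19.2 FPKM in NotoP and was listed at 0 in MP of both stages. *Scara3*, a scavenger receptor-like protein (17.5), had 44.3 and 31.8 FPKM in NotoP and 3.81 and 2.69 in MP. *Zfp703*, *Mtss1l*, *Ripk4*, *Pls1*, *Rin3*, *Cd47*, *Ctsc*, *Cep44*, *Dennd2c*, *D6Ertd527e*, *Gm572*, *Gnpda2*, *Pus7l* and *Sdk1* completed the group, with log2 ratios between 1.61 and 5.11. In culture 15 of the 30 were also at least 3-fold higher in NotoPdiff than in MPdiff cells (50.0%, 33.2 to 66.8), as were 105 of the 297 protein-coding genes higher at both stages (35.4%). *Dkk1* and *Cep44* had log2 ratios of −0.69 and −0.43.

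The 6 genes lower in NotoP at both stages were *1700066M21Rik*, *Lmf1*, *Mpzl2*, *Pax3*, *Pdgfra* and *Zic2*. *Pax3*, a factor of the neural tube and somites, had 3.07 and 6.55 FPKM in MP and 0.279 and 0.572 in NotoP. *Zic2*, a zinc finger factor of neural and mesodermal precursors, had 15.7 and 5.09 FPKM in MP, 0.954 and 0.868 in NotoP and 54.6 in NMPdiff cells. Of these 6, *Pdgfra* alone was at least 3-fold lower in NotoPdiff than in MPdiff cells.

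Between NotoP and trunk notochord, the step in which progenitors leave the caudal end, counts of lower genes exceeded those of higher genes at both stages. At E8.5, 64 of 972 genes (6.58%) were at least 3-fold lower in trunk notochord where 4.52% of all genes were, and 51 (5.25%) higher where 4.78% were. At E9.5, 85 (8.74%) were lower where 5.59% were, and 48 (4.94%) higher where 4.68% were. Among genes with at least 1 FPKM in either library the lower shares were 8.24% against 7.75% of all genes at E8.5 and 11.0% against 9.67% at E9.5, near the background, and the higher shares 6.56% against 8.2% and 6.22% against 8.09%. At both stages 28 genes (2.88%, 2.00 to 4.13) were lower where 1.06% of all genes were, and 13 (1.34%) higher where 0.931% were. Among the 28 were *Tbx6*, *Msgn1*, *Hes7*, *Hes1*, *Cdx2*, *Evx1*, *Hoxa4*, *Hoxa7*, *Hoxb1*, *Hoxb7*, *Dkk1* and *Notum*, besides *Rab8b*, *Ripk4* and *Tnfrsf12a*. *Hes1* had 94.9 and 85.2 FPKM in NotoP and 24.3 and 3.28 in trunk notochord. The 13 higher genes included *Cdon*, *Fgfr2*, *Pkdcc* and *Mpzl2*. These ratios use the same NotoP libraries as the comparison with MP. The trunk notochord libraries were made from fewer cells than the NotoP libraries. They listed 42.5% (E8.5) and 45.4% (E9.5) of protein-coding genes at 0, the NotoP libraries 41.0% and 38.7%. A 0 in trunk notochord therefore does not show that a gene was silent. For both stages together no share among genes with at least 1 FPKM was computed.

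Set beside the other promoter classes, the 121 measured genes with a promoter peak shared by T and Foxa2 were at least 3-fold higher in NotoPdiff than in MPdiff cells in 15 cases (12.4%, 7.66 to 19.4) and lower in 0 cases (interval up to 3.08%), and the 1646 genes with a Foxa2-only promoter peak in 61 (3.71%, 2.90 to 4.73). The 3.19% of T-only genes thus lay near the Foxa2-only share and below the shared one, without overlap of the intervals in the latter case. The classes are not disjoint: 18 of the 1018 T-only genes also had a shared promoter peak, and others a Foxa2-only one. At E9.5 in NotoP over MP the shares were 5.45% for T-only, 5.79% for shared (2.83 to 11.5) and 3.89% for Foxa2-only genes, and for trunk notochord over NotoP at E9.5 the lower genes made up 8.74%, 6.61% and 6.26%.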

How the data were processed

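Of 21 samples in the series, 9 RNA-seq and 2 ChIP-seq libraries were used and 10 were not used here. For RNA, the authors trimmed the first bases, mapped with TopHat2 2.1.1 and Bowtie 1.2.2, removed duplicates by molecular identifiers and computed FPKM with Cufflinks 2.2.1 with multi-read and bias correction. For ChIP, the authors mapped read pairs uniquely to mm10 with Bowtie 1.3.1, elongated and de-duplicated them and called peaks per library with MACS3 3.0.0b1 at a q cutoff of 0.1, and the control used for calling is not given in the sources used here. The deposited peak lists hold a score, the fold enrichment at the summit, −log10 p, −log10 q and the summit's offset in bp. Artefact regions that the authors removed in their own analysis were kept here.

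Peaks were compared by overlap of at least 1 bp, and summits were placed against GENCODE vM21. Of 23983 gene rows, 20401 protein-coding symbols were matched (747 by synonym), and 45 of 1018 genes with a peak had no match. Values were compared as log2(FPKM + 1). There was 1 library per condition, so no test was made, and FPKM values carry no read counts, so they are given without an interval. Words were searched on both strands in the mm10 reference within 50 bp of each summit, and at positions 10000 bp to either side. The scripts were tested on simulated data. Tables were handled with pandas 2.3.3 and numpy 2.4.6 in Python 3.11.15, sequence was read with pysam 0.24.0 and samtools 1.23.1, and figures were drawn with matplotlib 3.10.9.

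The peaks, gene lists and comparisons were chosen with earlier results of these data known. Genes named were those at the 12 strongest peaks, the 8 highest and 8 lowest ratios of NotoPdiff over MPdiff among genes with at least 5 FPKM in either, genes past 3-fold at both embryonic stages, members of the lists, and peaks at the edges of the rule. Some others were named after their values were seen. Alternatives were another distance, q cutoff, overlap, transcript start, pseudocount, filter, scaling and word.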

Additional observations from a re-analysis of the deposited data

Results flagged for a closer look

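At 5 of the 972 genes with a T-only promoter peak the difference between NotoP and MP was past 3-fold in opposite directions at E8.5 and E9.5. This difference between stages was not tested, since each condition had 1 library, and it was found at 50 of all 20401 protein-coding genes (0.245% against 0.514%). *Acadl*, an enzyme of fatty acid oxidation, had a log2 ratio of 2.73 at E8.5 (14.5 FPKM in NotoP, 1.33 in MP) and −1.85 at E9.5 (3.64 and 15.7). *Gnal*, a G protein subunit, had 2.06 (10.8 and 1.84 FPKM) and −1.83 (3.53 and 15.1). *Ccpg1os* had 1.87 (2.66 and 0 FPKM) and −2.20 (0.910 and 7.75), and *Sh3bgr* had 1.95 (2.86 and 0 FPKM) and −1.62 (0 and 2.08). *Pycr1*, an enzyme of proline synthesis, ran the other way with −2.04 (0.324 and 4.45 FPKM) and 1.66 (2.65 and 0.157). None of the 5 reached 3-fold between NotoPdiff and MPdiff cells, and the 3 last named stayed below 8 FPKM in all 4 libraries.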

How the results depend on the processing

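Of 98 alternatives, 12 of them chosen after seeing the data, 72 stayed within 1.5 times the count, 0.1 of the median or the 95% Wilson interval of the percentage reported, and 26 did not. With promoters limited to 1000 bp there were 473 peaks and 536 genes, 86.8% of genes had at least 1 FPKM in NotoPdiff cells, and genes past 3-fold numbered 8 higher and 3 lower in culture, 73 and 24 at E8.5 and 20 and 8 at E9.5. A threshold of 0.5 FPKM gave 80.5% and one of 5 FPKM gave 60.2%. In place of AGGTGTGA, GGTGTG was present at 12.8% of summits, and GTGTGAA at 11.6% and TGCTAA at 13.5%, both chosen after seeing the data. A pseudocount of 0.1 FPKM gave 84 higher and 17 lower genes in culture, 234 higher at E8.5, and 107 higher and 53 lower at E9.5. In culture the lower share (1.75%) was then below that of all genes (2.61%), the other way round from the reported shares, and the higher share was 8.64% against 7.04%. One of 5 FPKM gave 12 and 5, 56 and 15, and 20 and 3, so counts of 3-fold genes depend on the pseudocount. With 5 FPKM the lower share at E8.5 (1.54%) was just below that of all genes (1.63%), the other way round from the reported shares. With 0.1 FPKM the lower share at E9.5 was 5.45% against 5.44%. The higher shares stayed above those of all genes with either pseudocount, for example 5.76% against 2.64% at E8.5 with 5 FPKM. The median at E8.5 was 0.30 among genes with at least 1 FPKM in either library. The cause was not tested. Scaling by size factors gave 31 and 8, 144 and 47, and 54 and 17 genes. No paired analysis was possible because each condition had 1 library and the labels give no replicate numbers. Leaving out a replicate was not possible for the same reason.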
